A study of Sus scrofa with 6 samples.

Results

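Sarcomeric myosin heavy chains are the motor proteins of the thick filament of striated muscle, and the gene that a fibre uses largely defines its type. In adult pig muscle MYH7 is the heavy chain of slow, oxidative type I fibres, whereas MYH2, MYH1 and MYH4 are the heavy chains of fast type IIa, IIx and IIb fibres, and IIb fibres are the most glycolytic of them. MYH3 and MYH8 are the embryonic and neonatal heavy chains, which are used in developing and regenerating fibres. MYH7B is a slow-type heavy chain gene that is known from heart, extraocular muscle and muscle spindles. The 7 genes described here (MYH1, MYH2, MYH3, MYH4, MYH7, MYH7B and MYH8) were taken by their symbols from 20288 protein-coding gene IDs with an FPKM value (sequenced fragments scaled to transcript length and to library size), and the share of each in the summed myosin heavy chain FPKM was used as a measure of fibre type.

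RNA was sequenced from the longissimus thoracis (LT) and the semitendinosus (ST) of 3 Min pigs, a local Chinese breed with the genotype label WT, all of 1 age and with no treatment named. Each pig gave 1 LT and 1 ST library, so the groups were 3 LT and 3 ST libraries, and the libraries were depleted of ribosomal RNA before a directional kit was used. The part of each muscle that was cut was not given in the sources used here, which limits these libraries as a model of a whole muscle. The skeletal muscle markers ACTA1, CKM, DES and NEB were high in every library, with a summed level between 6986 and 9966 FPKM, and 0 of the 4 differed between the muscles in limma at an adjusted p under 0.05, which is not a test that they were equal.

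The depth of a library was not stated in its file, but it was estimated from its low values. Among low genes with 1 transcript, the commonest value of FPKM times length within a set range was taken as the step of 1 fragment. Only 24.2% to 25.9% of these low values per library were whole multiples of the step within 0.02, so the estimate is rough. The steps corresponded to between about 38400000 and 51800000 fragments per library. At that depth the lowest value of any of these gene IDs, MYH7B in LT replicate 2, stood for about 473 fragments. The estimate covers the fragments behind these values and is not a count of all reads sequenced.

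The gene models decided which of the 7 genes could be told apart. MYH2, MYH1 and MYH4 lie in a row on the minus strand of chromosome 12 and carry 1 gene ID in the annotation of the files (ENSSSCG00000029441, Sscrofa11.1, chr12:55190429-55278539). MYH7 shares an ID with its neighbour MYH6, the alpha heavy chain of the heart (ENSSSCG00000002029, chr7:75650445-75709232). MYH8 (ENSSSCG00000018005, chr12:55134844-55167749) and MYH3 (ENSSSCG00000018007, chr12:55347087-55375353) flank the fast genes, and MYH7B (ENSSSCG00000007288, chr17:38360585-38389321) lies alone. The 7 genes were therefore measured as 5 gene IDs, which hold 29 transcript models. The 2 shared IDs were afterwards split by the position of their models against the RefSeq spans of MYH2, MYH1, MYH4 and MYH7. No MYH6 span was used in this split, and models of the MYH7 and MYH6 ID outside the MYH7 span were taken as MYH6. That split was chosen after the files had been seen. It separated MYH4 (ENSSSCT00000061472, 40 exons, 6161 bases), MYH2, MYH7 and MYH6, except for 1 model that joins MYH7 to MYH6 (ENSSSCT00000047799), and no model lay in MYH1 alone. MYH1 was covered only by models joined to a neighbour, namely ENSSSCT00000019596, which runs from the 5′ end of MYH1 to the 3′ end of MYH4 in 39 exons, ENSSSCT00000064728, which runs from MYH2 into MYH1, and 2 long models from MYH2 to MYH4. The heavy chain genes are closely alike in sequence, so the division of fragments between neighbouring models is uncertain, and its part in the values of single models was not tested.

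**Figure D1:**
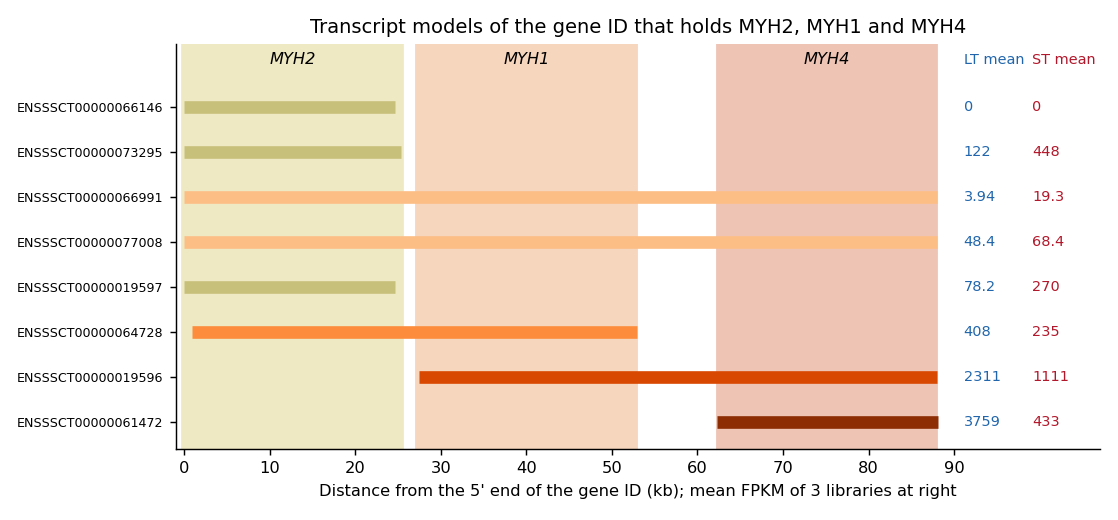
Transcript models of the gene ID that holds MYH2, MYH1 and MYH4, drawn from the first to the last base against distance from the 5′ end of the ID in kb, with RefSeq gene spans shaded and the mean FPKM of the 3 LT and 3 ST libraries printed at the right. The MYH4 model (mean 3759 FPKM in LT and 433 in ST) and the MYH1 to MYH4 joined model (2311 and 1111) carried most of the signal in LT, and no model lies within MYH1 alone.

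ST replicate 2 stood apart from the other ST libraries in these genes. The fold changes of the gene IDs described here and of the named slow and fast partner genes are therefore given with and without it. The library was singled out by its values in these same genes, so leaving it out narrows their spread by choice. Adjusted p-values without it are thus biased towards passing and describe sensitivity only. In ST replicates 1 and 3 the MYH7 and MYH6 ID held 70.7% and 91.0% of the summed heavy chain FPKM, while in ST replicate 2 it held 14.6% and the fast ID held 84.3%. Nothing in the labels sets this library apart. The LT of the same pig was close to the other LT libraries.

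The fast adult genes MYH1, MYH2 and MYH4 together made up nearly all heavy chain RNA in LT. Their ID reached 6368, 7844 and 5981 FPKM in LT replicates 1, 2 and 3, against 1443, 5873 and 437 FPKM in ST replicates 1, 2 and 3. Every ST library was below every LT library, but ST replicate 2 was just short of the lowest LT. As a share of the summed heavy chain FPKM, the fast ID held 90.7% ± 2.12 in LT against 40.4% ± 39.3 in ST (mean ± SD, 3 libraries each, exact permutation test, two-sided, p = 0.1, the smallest that 3 against 3 libraries can give). The difference in mean share was -50.3 percentage points, -72.2 without ST replicate 2 and -34.3 without ST replicate 3. Among nuclear protein-coding genes it ranked 7th, 7th and 6th by FPKM in the LT libraries, and 27th, 6th and 93rd in ST replicates 1, 2 and 3. In bulk muscle, fewer fibres of a type and less RNA per fibre cannot be told apart.

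The log2 fold change of the fast ID on the log2(FPKM + 0.1) scale was -2.11 ± 0.85 (SE), with a 95% confidence interval of -4.09 to -0.13, and it did not pass the threshold (limma, adjusted p = 0.215). Within the pigs the ID was lower in ST in 3 of 3, by 4.41-fold, 1.34-fold and 13.7-fold in pigs 1, 2 and 3. Without ST replicate 2 the change was -3.07 and passed (adjusted p = 0.0203), whereas with the pig as a block it did not (adjusted p = 0.0921). Without ST replicate 3 it was -1.20. With only the highest transcript of the ID, which is the MYH4 model, the change was -6.37. Over all alternatives the adjusted p ranged from 0.00897 to 0.592.

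Within the fast ID the difference was largest for the models of MYH4, the heavy chain of IIb fibres. MYH4 models stood at 2824, 4989 and 3464 FPKM in LT, and at 15.3, 1280 and 4.24 FPKM in ST replicates 1, 2 and 3. ST replicates 1 and 3 were thus 185-fold and 817-fold below the LT of their own pig, and ST replicate 2 was 3.90-fold below. The log2 fold change was -6.37 ± 1.81 (SE), with adjusted p = 0.110 in limma, 0.0418 with the pig as a block and 0.00277 without ST replicate 2, where the change was -8.81. Without ST replicate 3 it was -4.70 (adjusted p = 0.241). MYH4 models made up 40.1%, 59.1% and 51.4% of heavy chain FPKM in LT, but 0.301%, 18.4% and 0.0824% in ST.

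The joined model from MYH1 to MYH4, which has the 5′ end of the IIx gene, behaved like MYH4 in pigs 1 and 3 but not in pig 2. It stood at 2767, 2188 and 1979 FPKM in LT and at 72.3, 3232 and 27.6 FPKM in ST replicates 1, 2 and 3. The highest of the 6 libraries was therefore ST replicate 2, where this model made up 46.4% of heavy chain FPKM. The joined model from MYH2 into MYH1 had the same order, with 509, 388 and 326 FPKM in LT and 23.4, 673 and 7.80 FPKM in ST. Neither model passed with all libraries (log2 fold changes of -3.62 and -3.00, adjusted p = 0.232 and 0.276), and both passed without ST replicate 2 (-5.67 and -4.88, adjusted p = 0.00328 and 0.00419). Without ST replicate 3 they were -2.24 and -1.67 (adjusted p = 0.480 and 0.554).

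Models that lie within MYH2 alone, the IIa gene, went the other way from the MYH4 and the MYH1 joined models. These MYH2 models stood at 218, 207 and 176 FPKM in LT and at 1260, 513 and 381 FPKM in ST. All ST libraries were thus above all LT libraries, ST replicate 2 included. The log2 fold change was 1.65 ± 0.42 (SE), with adjusted p = 0.0940 in limma and 0.0363 with the pig as a block. Without ST replicate 2 it was 1.79 and, unlike that of MYH4, did not pass (adjusted p = 0.0664). MYH4 stood to MYH2 as 12.9, 24.1 and 19.7 to 1 in the LT libraries, against 0.0121, 2.50 and 0.0111 to 1 in ST. The MYH2 models ranged from 2.46% to 3.10% of heavy chain FPKM in LT and from 7.36% to 24.8% in ST, where ST replicate 1 was the highest. The 2 long models from MYH2 to MYH4 did not exceed 175 FPKM in any library and their groups overlapped. The joined model from MYH2 into MYH1 is not counted with MYH2 here. It was above the MYH2 models in every LT library (509, 388 and 326 FPKM), and stood at 23.4, 673 and 7.80 FPKM in ST. The direction and share of MYH2 therefore depend on where its fragments belong, which was not tested.

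**Figure D2:**
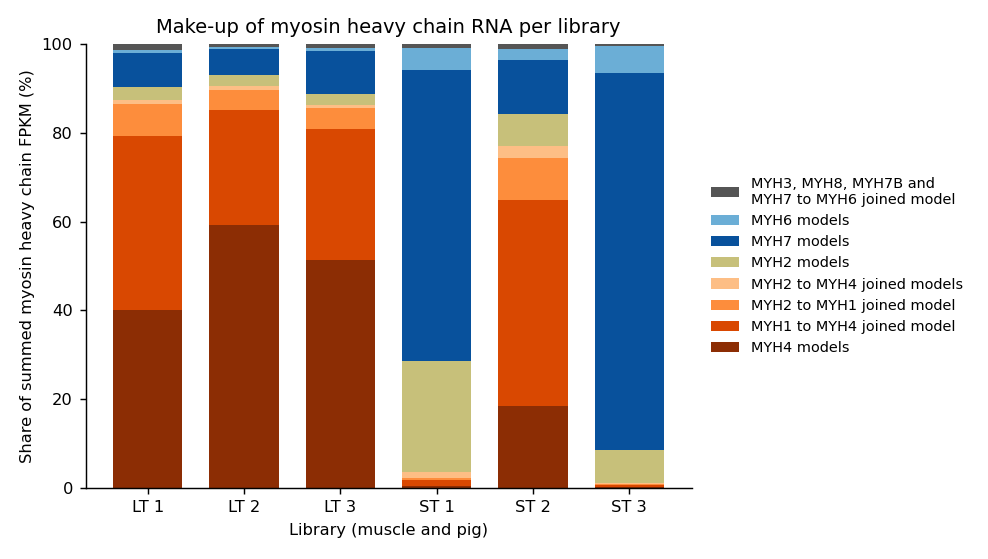
Percentage of the myosin heavy chain sum held by each class of transcript model in each of the 6 libraries, labelled by muscle and pig. Models of MYH4 or joined to MYH1 fill most of the 3 LT bars and of ST 2, and MYH7 models fill 65.6% and 84.9% of ST 1 and ST 3.

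MYH7, the slow heavy chain, was the main heavy chain of ST replicates 1 and 3. The ID of MYH7 and MYH6 stood at 614, 530 and 696 FPKM in LT and at 3582, 1014 and 4682 FPKM in ST replicates 1, 2 and 3. All ST libraries were above all LT libraries, by 5.84-fold, 1.91-fold and 6.73-fold within pigs 1, 2 and 3. The ID held 8.44% ± 2.04 of heavy chain FPKM in LT against 58.7% ± 39.6 in ST (mean ± SD, 3 libraries each, exact permutation test, two-sided, p = 0.1). The difference in mean share was 50.3 percentage points, 72.4 without ST replicate 2 and 34.2 without ST replicate 3. Its log2 fold change was 2.08 ± 0.56 (SE, 95% confidence interval 0.78 to 3.37), which missed the threshold with all libraries (limma, adjusted p = 0.103). It passed with the pig as a block (adjusted p = 0.0380) and, at 2.75, without ST replicate 2 (adjusted p = 0.00427).

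By position, most of this signal came from MYH7 in every library, with 542, 500 and 654 FPKM in LT and 3327, 846 and 4365 FPKM in ST. Its log2 fold change was 2.04 (adjusted p = 0.115, and 0.0463 with the block), and 2.76 without ST replicate 2 (adjusted p = 0.00399). The fast ID stood to the slow ID as 10.4, 14.8 and 8.59 to 1 in LT, against 0.403, 5.79 and 0.0934 to 1 in ST. The model that carried MYH7 differed between libraries, since ENSSSCT00000002271 was the highest in 5 of 6 and ENSSSCT00000035771 was the highest in ST replicate 1 (1939 against 1334 FPKM). MYH7 is best described by its sum for that reason.

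MYH6 models were much lower than those of MYH7, but they separated the muscles more evenly. They stood at 36.8, 29.7 and 41.7 FPKM in LT and at 256, 168 and 317 FPKM in ST replicates 1, 2 and 3, so ST replicate 2 was close to the other ST libraries here. MYH6 by position rose in ST by 2.74 ± 0.27 (SE) on the log2 scale (limma, adjusted p = 0.00961), and by 2.99 without ST replicate 2 (adjusted p = 0.00328). The model that joins MYH7 to MYH6 was not counted with either gene, and it stood at 34.6 FPKM in LT replicate 1 and at 0.0442 FPKM or less in the other libraries (log2 fold change -2.61, adjusted p = 0.499). Its part in the MYH6 result was not tested, but MYH6 and this model together in LT replicate 1 were still below MYH6 in every ST library. The call was lost when any 1 LT library was left out (adjusted p between 0.0535 and 0.0547) or when no filter on FPKM was used (0.0728), and the position split itself was made after the files had been seen. MYH6 was 6.78%, 5.94% and 6.38% of MYH7 FPKM in LT, 7.68% and 7.25% in ST replicates 1 and 3, and 19.9% in ST replicate 2. Heart markers were low beside it, since NPPB was listed at 0 in every library, MYBPC3 was below 0.1 FPKM in every library, and TNNT2, the cardiac troponin T, did not exceed 0.502 FPKM. TNNI3, the cardiac troponin I, stood at 0.673, 0.278 and 0.305 FPKM in LT against 3.18, 0.459 and 1.14 FPKM in ST, and was higher in ST in 3 of 3 pigs (1.42 on the log2 scale, adjusted p = 0.245, and 0.0526 with the block). The summed level of the 4 matched heart markers other than MYH6 did not exceed 3.29 FPKM, and their part in the MYH6 result was not tested.

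MYH7B was the scarcest of the 5 gene IDs in LT. It stood at 3.11, 1.47 and 1.57 FPKM in LT and at 27.1, 5.43 and 17.4 FPKM in ST replicates 1, 2 and 3, with no overlap between the muscles. Within pigs it was 8.71-fold, 3.69-fold and 11.09-fold higher in ST. The log2 fold change was 2.76 ± 0.57 (SE), with adjusted p = 0.0655 in limma, 0.0189 with the pig as a block, and 0.00646 without ST replicate 2, where the change was 3.42. All 3 of its expressed models were higher in each ST library than in each LT library. MYH7B remained a minor heavy chain, at 0.535% of the summed FPKM or less. Of the other listed markers of muscle spindle fibres, MYH6 was at the levels given above, while the remaining ones were low, with CALB1 below 0.1 FPKM in every library, MYH15 at 0.164 FPKM or less, and EGR3 between 0.371 and 1.15 FPKM.

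The neonatal gene MYH8 followed the summed fast ID rather than the muscle label. It stood at 54.8, 54.5 and 54.1 FPKM in LT, with an SD of 0.383 FPKM, and at 10.4, 65.0 and 4.31 FPKM in ST replicates 1, 2 and 3. ST replicate 2 was above all LT libraries, so the groups overlapped, and the log2 fold change of -1.92 ± 0.83 (SE) did not pass (limma, adjusted p = 0.244). It was -3.00 and passed without ST replicate 2 (adjusted p = 0.00774), and -1.06 without ST replicate 3. MYH8 amounted to between 0.695% and 1.11% of the FPKM of the fast ID in all 6 libraries, although that ID itself varied from 437 to 7844 FPKM. The division of fragments between MYH8 and the fast genes beside it, which are closely alike in sequence, was not tested. Of its 5 models, ENSSSCT00000056000 carried nearly all of the level.

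The embryonic gene MYH3 was low in both muscles. It stood at 6.19, 6.38 and 4.67 FPKM in LT and at 6.88, 10.7 and 3.71 FPKM in ST replicates 1, 2 and 3, with overlapping groups. The log2 fold change was 0.19 ± 0.36 (SE, 95% confidence interval -0.65 to 1.02, limma, adjusted p = 0.811), and it was -0.17 without ST replicate 2 (adjusted p = 0.760). MYH3 never held more than 0.153% of heavy chain FPKM.

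**Figure D3:**
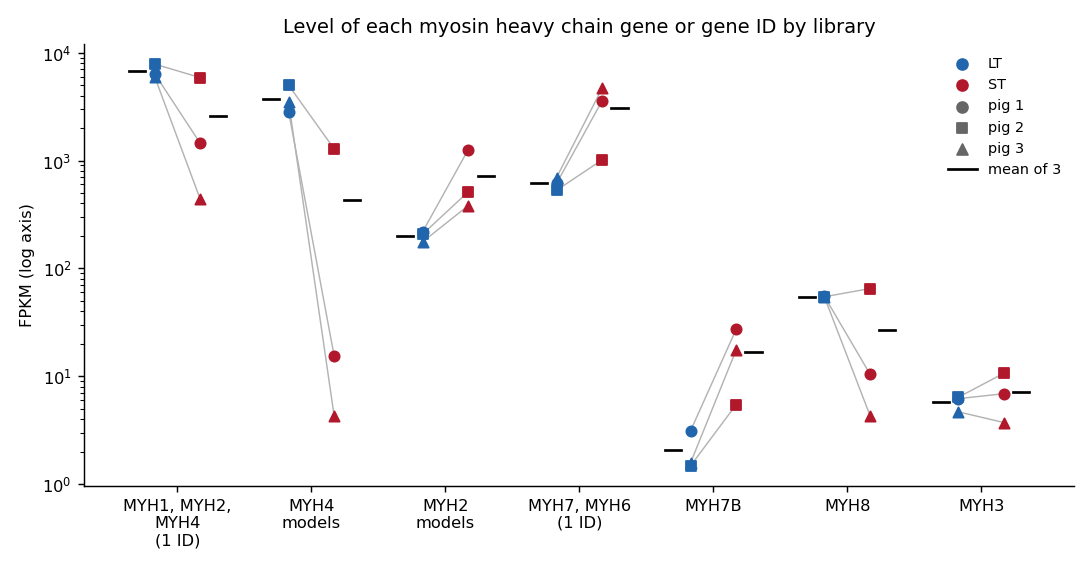
FPKM on a log axis for each gene ID and for the MYH4 and MYH2 models, with LT in blue and ST in red, 1 symbol per pig, grey lines joining the muscles of 1 pig and black bars for the mean of 3. ST of pig 2 (squares) lies near the LT values for the fast ID and MYH8, while all ST points are above all LT points for the MYH2 models, the MYH7 and MYH6 ID and MYH7B.

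In order of mean level in LT, the gene IDs ran from the fast ID (6731 FPKM) through MYH7 and MYH6 (613), MYH8 (54.5) and MYH3 (5.75) to MYH7B (2.05). No 2 neighbours in that order overlapped in LT. In ST the order of the means was MYH7 and MYH6 (3093 FPKM), the fast ID (2584), MYH8 (26.6), MYH7B (16.7) and MYH3 (7.08), and there the ranges of the first 2 overlapped, as did those of the last 3. The summed heavy chain level varied less than its make-up, at 7046, 8436 and 6737 FPKM in LT and 5070, 6968 and 5144 FPKM in ST. These sums overlapped between the muscles and were lower in ST in 3 of 3 pigs, by 1.39-fold, 1.21-fold and 1.31-fold.

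Across the 13994 protein-coding gene IDs tested, limma called 104 at an adjusted p under 0.05, which is 0.743%, and 0 of the 5 heavy chain IDs were among them. At an unadjusted p under 0.05 the counts were 2894 of all IDs and 3 of the 5. With the pig as a block, 7.57% of all IDs were called, and so were 2 of the 5, MYH7 and MYH6 and MYH7B. Without ST replicate 2, 6.88% were called, and so were 4 of the 5, all but MYH3. In 19.2% of all IDs every ST library was above every LT library, and in 7.42% every ST library was below, against 2 and 1 of the 5. The median log2 fold change of all IDs was 0.17 with FPKM as deposited and -0.01 after quantile normalization, so the changes above are to be read against a median that moved by more than 0.1. MYH3 was the only heavy chain ID whose direction turned with that scaling.

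Sarcomeric partner genes were described by lists that hold the light chains, troponins and other proteins used with slow or fast myosin. Of the slow partner genes, 11 of 12 were matched, all 11 had a positive log2 fold change, and the median was 2.02 beside the median of 0.17 over all IDs. With all libraries 1 was called, MYBPC1, the slow myosin-binding protein C, at 608, 435 and 535 FPKM in LT and 2547, 1539 and 2431 FPKM in ST (log2 fold change 2.02, limma, adjusted p = 0.0399). It was the only partner, structure or regulator gene of the lists to be called in that fit, and the call was lost with no filter on FPKM, with no variance trend and when any 1 library other than ST replicate 2 was left out (highest adjusted p = 0.174). MYL3, the slow essential light chain, stood at 283, 200 and 293 FPKM in LT and 1789, 465 and 1884 FPKM in ST (2.19, adjusted p = 0.0843, and 0.0277 with the pig as a block). MYOZ2, a Z-disc protein of slow fibres, stood at 10.4, 11.2 and 19.4 FPKM in LT and 183, 27.8 and 266 FPKM in ST (3.07, adjusted p = 0.0878, and 0.0297 with the block). Called slow partner genes numbered 7 with the block and 10 without ST replicate 2, in both fits with higher levels in ST. ST replicate 2 was the lowest ST library in each of the 3 genes named, and without it the log2 fold changes of MYBPC1, MYL3 and MYOZ2 were 2.25, 2.85 and 4.06 (adjusted p = 0.00559, 0.00414 and 0.00414).

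Fast partner genes mirrored this. Of the list, 12 of 13 were matched, all 12 had a negative log2 fold change, the median was -2.36, and 0 were called with all libraries. TPM1, the fast alpha-tropomyosin, stood at 5087, 4801 and 4596 FPKM in LT and 843, 2266 and 251 FPKM in ST (-2.62, adjusted p = 0.104, and 0.0469 with the block). ACTN3, the Z-disc actinin of fast glycolytic fibres, stood at 810, 684 and 504 FPKM in LT and 56.3, 375 and 10.4 FPKM in ST (-3.43, adjusted p = 0.139). MYLK2, the kinase of the skeletal regulatory light chain, was at -1.25 on the log2 scale (adjusted p = 0.146). With the block 2 were called, TPM1 and CASQ1, a calcium-binding protein of the sarcoplasmic reticulum (-0.90, and -1.15 without ST replicate 2, adjusted p = 0.0819), and without ST replicate 2 the number was 10, all lower in ST. As for the summed fast ID, ST replicate 2 was the highest ST library for TPM1, ACTN3 and MYLK2. Without it their log2 fold changes were -3.39, -4.75 and -1.72 (adjusted p = 0.0155, 0.0133 and 0.0151).

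**Figure D4:**
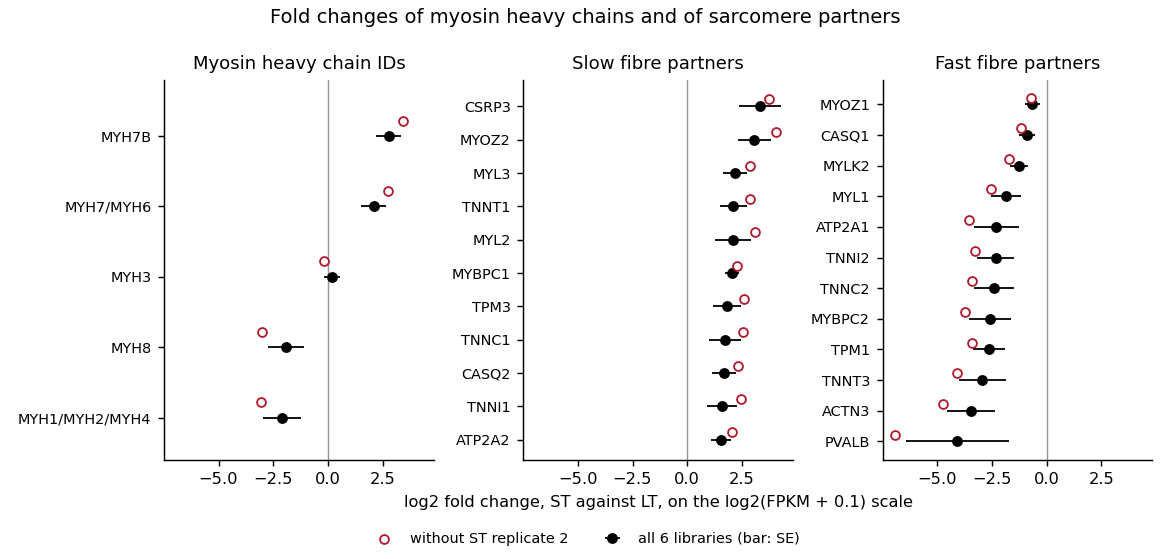
Log2 fold changes of ST against LT on the log2(FPKM + 0.1) scale for the 5 heavy chain gene IDs, 11 slow partner genes and 12 fast partner genes, with black points and SE bars for all 6 libraries and open red points without ST replicate 2. Slow partners all lie above 0 and fast partners all below 0, and leaving out ST replicate 2 moves most points away from 0.

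Other lists around myosin held genes of either direction or few calls. Of 8 tested genes for thick filament structure, MYBPC1 was called, 4 were positive and 4 negative, and the median was -0.04. With the block MYOM3, an M-band protein (1.85), was also called higher and MYBPH, a relative of myosin-binding protein C (-1.98), lower in ST. Neither of them passed without ST replicate 2 (limma, adjusted p = 0.0643 and 0.195). MYBPC2, the fast myosin-binding protein C, was at -2.59 (adjusted p = 0.183) and was called lower without ST replicate 2 (-3.74, adjusted p = 0.0180). Among 8 tested genes for myosin folding and turnover, 0 were called with all libraries. XIRP2 and the ubiquitin ligase subunit FBXO32 were called higher in ST with the block (limma, adjusted p = 0.0485 and 0.0461). Neither passed without ST replicate 2 (adjusted p = 0.150 and 0.274), where TRIM55, a sarcomeric ubiquitin ligase, was called higher. UNC45B, the muscle myosin chaperone, was at 0.11 on the log2 scale (adjusted p = 0.836). Among 8 genes of embryonic and regenerating fibres, which overlap in use with MYH3 and MYH8, 0 were called with all libraries or with the block. CHRNA1, a subunit of the acetylcholine receptor, was called higher in ST without ST replicate 2.

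Of 26 known regulators of heavy chain genes, 0 were called with all libraries and the median log2 fold change was 0.21. PPARGC1A, a coactivator of oxidative fibre genes, stood at 4.49, 5.81 and 3.05 FPKM in LT and 10.5, 68.7 and 23.1 FPKM in ST, where the highest value was that of ST replicate 2 (2.54, adjusted p = 0.0826, and 0.0286 with the block, and 1.83 without ST replicate 2, adjusted p = 0.0424). VGLL2 is a cofactor of TEAD factors in muscle. It stood at 16.2, 13.7 and 14.3 FPKM in LT and 28.2, 26.5 and 20.4 FPKM in ST. The log2 fold change of VGLL2 was 0.75 (limma, adjusted p = 0.0823, 0.0430 with the block and 0.0832 without ST replicate 2). EYA4 was the third gene called with the block, and it was lower in ST. SOX6, a repressor of slow fibre genes, stood at 14.0, 16.6 and 15.8 FPKM in LT and at 4.69, 14.6 and 4.03 FPKM in ST, so ST replicate 2 lay among the LT values. Its log2 fold change was -1.23 (adjusted p = 0.175), and -1.80 without ST replicate 2 (adjusted p = 0.00525). Without ST replicate 2 the calls were MEF2C, PPARGC1A and PROX1 higher in ST and EYA4, NFATC3 and SOX6 lower.

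Heavy chain genes outside the 7 were also measured. MYH13, the extraocular heavy chain, stood at 10.9, 38.4 and 28.5 FPKM in LT and 7.09, 17.2 and 3.76 FPKM in ST (log2 fold change -1.56, adjusted p = 0.203). The non-muscle gene MYH9 was called higher in ST with the block (0.66, adjusted p = 0.0488, and 0.0922 without it), and the smooth muscle gene MYH11 was at 0.79 on the log2 scale (adjusted p = 0.156).

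The profiles over the 6 libraries that were most like those of the heavy chain IDs were sought among 8112 genes with FPKM above 1 in every library, by the root mean square difference of log2 values centred on their mean. For the fast ID they were TNNI2 (0.133), TNNC2 (0.209) and MYH8 (0.237), beside a median of 1.62 over all genes. TNNI2, the fast troponin I, stood at 8020, 8404 and 7527 FPKM in LT and 1464, 6024 and 458 FPKM in ST. For the slow ID they were MYL3 (0.135), DNAJB9, a chaperone of the endoplasmic reticulum (0.229), and TNNT1, the slow troponin T (0.235), beside a median of 1.18. For MYH8 the fast ID (0.237), TNNI2 (0.272) and SIX2 (0.301) were the closest, and for MYH7B RCAN2 (0.402), TNNT1 (0.454) and MYL3 (0.455). For MYH3 they were AEBP1 (0.106), DEPP1 (0.109) and VPS37B (0.122), but the median over all genes was only 0.579 there, because MYH3 varied little. All of these measures rest on the same 6 libraries, and they describe likeness only.

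**Figure D5:**
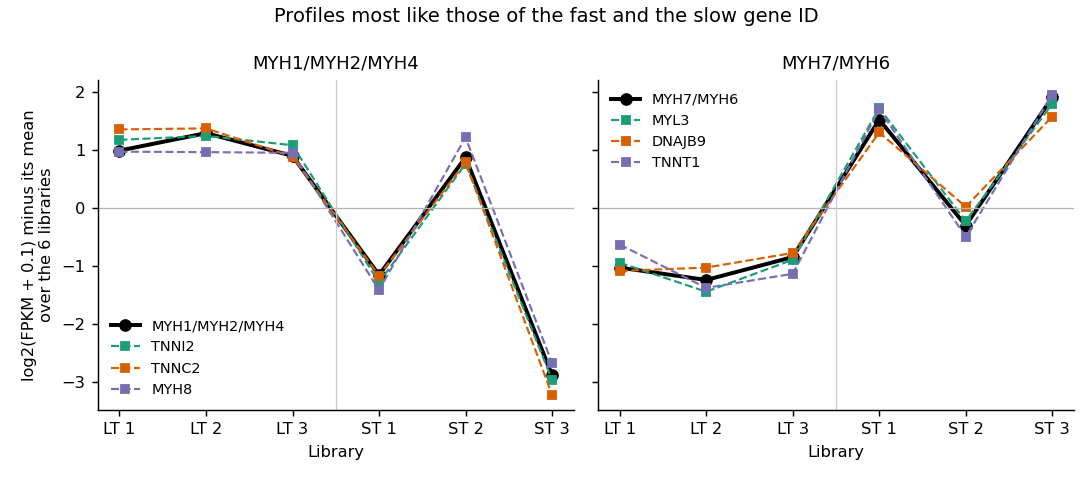
Centred log2(FPKM + 0.1) profiles over the 6 libraries for the fast ID (left) and the slow ID (right), each in black with its 3 most alike genes in colour. The fast profiles dip at ST 1 and ST 3 and much less at ST 2, and the slow profiles are high at ST 1 and ST 3 and lower at ST 2, where the slow ID (1014 FPKM) is still above every LT library.

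Other RNA in the libraries moved with the muscle label as well. Genes of the mitochondrial genome made up 6.72%, 6.15% and 9.04% of protein-coding FPKM in LT and 15.7%, 13.2% and 16.7% in ST, with ST replicate 2 on the side of ST. The endothelial markers PECAM1 (1.39) and CDH5 (1.22) rose in ST on the log2 scale (limma, adjusted p = 0.0399 and 0.0355), though over the alternatives the adjusted p of each reached 0.157. They were 2 of the 3 tested, and KDR (1.18, adjusted p = 0.184) was called as well with the block (0.0299). The summed level of the 3, of which PECAM1 was the most abundant, was 57.4, 36.6 and 41.9 FPKM in LT and 137, 98.6 and 107 FPKM in ST. Of 5 smooth muscle markers 0 were called (SMTN with the block), of 5 adipocyte markers 0, and the adipocyte sum was 115, 65.2 and 180 FPKM in LT and 148, 57.0 and 47.3 FPKM in ST, with FABP4 the most abundant. Fibroblast (5), leukocyte (4), erythroid (2) and Schwann cell and nerve (3) markers gave 0 calls with all libraries or with the block. The part of these other cells in the heavy chain values was not tested.

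Transcripts outside the annotated genes overlapped the heavy chain IDs on the opposite strand. There were 65 of them in all, of which 51 were classed as mRNA and 14 lncRNA, and 0 lay on the strand of the gene they overlapped. The 60 at the fast locus, of which 49 reach across MYH8 and 20 across MYH3, summed to 393, 527 and 417 FPKM in LT and 136, 385 and 37.4 FPKM in ST, the same order of libraries in ST as the fast ID. The 4 across MYH7 and MYH6 summed to 57.4, 43.2 and 61.3 FPKM in LT and 323, 72.3 and 316 FPKM in ST. All 65 together equalled 6.75% of the heavy chain sum in LT and 7.52% in ST. The kit marks strand, but whether mapping and assembly used it was not given in the sources used here, so reads of the genes and of these opposite transcripts cannot be told apart with certainty. For MYH3 and MYH8 the summed FPKM of the opposite transcripts was above that of the gene. All of these transcripts also overlap the fast ID, so their FPKM cannot be assigned to MYH3 or MYH8. The 20 across MYH3 reached 138 FPKM on average in LT, against 5.75 FPKM for the gene, and the 49 across MYH8 reached 357 FPKM, against 54.5. In an alternative, the full FPKM of each transcript was added to every ID it overlaps, so the same transcripts counted more than once. There the log2 fold change of MYH8 was -1.70, and its difference in mean share moved from -0.335 to -2.18 percentage points. MYH3 changed direction, from 0.19 to -1.50 on the log2 scale and from 0.0427 to -0.545 percentage points in share. These shifts may come from the fast locus, which was not tested.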

How the data were processed

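Per the labels and the study's methods, total RNA was depleted of rRNA, reads were trimmed with SOAPnuke, mapped to Sscrofa11.1 with HISAT2 and assembled with StringTie, and the authors deposited 1 FPKM value per transcript and library, with no counts. FPKM was here summed per protein-coding gene ID, and IDs above 0.1 in at least 1 library were tested with limma 3.58.1 (variance trend, R 4.3.3) on log2(FPKM + 0.1), ST against LT without a pig term. A call is a Benjamini-Hochberg adjusted p under 0.05 over all 13994 IDs. As the study's methods give both muscles from the same 3 pigs and the titles number them, the pig was a block in an alternative. Residuals correlated between muscles of 1 pig (0.305 to 0.329). Between pigs the values were -0.225 to -0.123, but residuals were centred within each muscle. With 3 libraries that forces negative values there when those within pigs are positive, so they are not separate evidence. Shares were compared by exact permutation tests. Symbols came from the Ensembl table or RefSeq positions. Named were all members, per list the called genes or those with the smallest p, markers, and the 3 most alike profiles. CASQ1, FBXO32, UNC45B, EYA4, MEF2C and PROX1 fall outside that rule and were named after their values were seen. Members and lists were chosen with earlier results of these data known. No sequence was used. Depth was estimated from value steps, and 24.2% to 25.9% of low single-transcript values per library were whole multiples of the step within 0.02. P-values rest on 3 pigs, with 1 library per muscle and pig. The main fit and the permutation tests of shares leave the pairing out, and the block fit uses it. An exact sign change test of the within-pig differences in share gave p = 0.25 for the fast ID and for MYH7 and MYH6. That is the smallest value it can give with 3 pigs.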

Additional observations from a re-analysis of the deposited data

How the results depend on the processing

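With the replicate block, the log2 fold changes of MYH7 and MYH6 (2.08) and MYH7B (2.76) passed the threshold, as did MYH4 (-6.37), MYH2 (1.65) and MYH7 (2.04) by position; it changed no other call among these genes. Leaving out each library in turn gave -3.07 to -1.20 for the fast ID, 1.65 to 2.75 for MYH7 and MYH6, -3.00 to -1.06 for MYH8, 2.27 to 3.42 for MYH7B, -0.17 to 0.58 for MYH3 and -0.56 to 1.16 for the MYH2 to MYH4 joined models (-0.02 without LT replicate 3), -8.81 to -4.70 for MYH4, -5.67 to -2.24 for the MYH1 to MYH4 model and -4.88 to -1.67 for the MYH2 to MYH1 model; only the fit without ST replicate 2 brought heavy chain IDs past the threshold. With both libraries of pig 2 left out and the block kept, an alternative chosen after seeing the data, the values were -2.96 for the fast ID, 2.65 for MYH7 and MYH6, -3.00 for MYH8, 3.24 for MYH7B and -0.086 for MYH3. MYH3 also reversed under quantile normalization (-0.0068), with the highest transcript alone (-0.050) and with opposite-strand transcripts added (-1.50). The opposite-strand transcripts added to MYH3 all overlap the fast ID too and were counted for both. With only its highest transcript, the fast ID was at -6.37 and its difference in share at -65.2 percentage points. The difference in share reversed for MYH3 with those transcripts (-0.545 percentage points) and for MYH8 with only the highest transcript of every ID (0.0172), a setting that left the level of MYH8 nearly unchanged but lowered the sum it is divided by. Genes called numbered 104, and 171 with FPKM above 1, 18 with no filter, 1059 with the replicate block, 207 rescaled to nuclear genes, 50 after quantile normalization, 26 with no variance trend, 11 to 956 with 1 library left out, and 1257 with the block without pig 2. Heavy chain IDs called numbered 0, and 2 with the block, 0 to 4 with 1 library left out, and 4 with the block without pig 2. Listed genes called numbered 1, and 0 with no filter or no variance trend, 17 with the block, 0 to 28 with 1 library left out, and 33 with the block without pig 2. The causes were not tested. Adding unannotated transcripts on the same strand changed nothing, since there were 0, and the wider denominator added MYH13 and MYH15 only. With 3 libraries a muscle, no exact test of a share could go below p = 0.1.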
